A study of Mus musculus with 135 samples.

Results

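The comparison described here is that of sickle and normal genotype in the cerebral cortex of mice that went through repeated social defeat (RSD) and received minocycline, an antibiotic of the tetracycline class. Members were the cortex libraries that the labels give as exposed to RSD and treated, 14 from SS + RSD + minocycline mice and 18 from AA + RSD + minocycline mice, which makes 32 of the 135 libraries of the series. The labels hold 19 AA libraries of this kind, and 1 was left out because its counts were identical to those of an SS library from a mouse treated with minocycline alone. SS mice are the Townes model of sickle cell disease, in which both copies of the adult beta-globin gene are the human sickle allele. AA mice are their humanized controls and carry the normal human allele, so that human globin genes stand in for the adult mouse globin genes in both genotypes. All mice were male according to the study, and both groups went through RSD and minocycline, which began before the defeats and went on through them. The comparison therefore holds stress and drug constant and asks how genotype differs under them. Control mice, used below for a second comparison, were 8 SS and 12 AA mice with neither RSD nor minocycline. Each library comes from the cortex of 1 mouse, as mouse numbers in the labels show. It mixes all cells of the dissected tissue and the blood in its vessels, so that a higher share of a cell type and more RNA per cell of that type cannot be told apart.

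Sickle hemoglobin polymerizes when it gives up oxygen, red cells break down early, and the bone marrow and spleen release many immature red cells, the reticulocytes, in return. Reticulocytes still hold RNA for heme synthesis and membrane proteins, which mature red cells lack, and they pass through the vessels of every organ. Sickle cell disease is also known for anemia with low oxygen supply to the brain, for activated and inflamed endothelium, and for interferon signals in the blood. RSD, in which mice are defeated again and again by an aggressor, is known to activate brain endothelium and microglia and to draw monocytes into the brain, and minocycline is widely used to dampen microglial activation.

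Alas2, the erythroid enzyme for the first step of heme synthesis, serves as a marker of immature red cells and as a check on genotype labels. It lies at chrX:149330371-149353634 on the plus strand of GRCm39. Levels are given as CPM, a gene's count relative to all reads on genes of its library at a fixed scale, with library sizes scaled by TMM. The 14 SS libraries ranged from 6.24 to 129, with a median of 71.8. The 18 AA libraries ranged from 2.91 to 49.97, with a median of 4.76. Of the SS libraries, the lowest was that labelled 7078, and of the AA libraries the highest was that labelled 5853. The lowest of the other SS libraries was at 53.5 and the highest of the other AA libraries at 21.1. The hippocampus libraries of the same mice behaved in the same way, with Alas2 at 44.3 CPM in the one labelled 5853 and at 3.43 in the one labelled 7078, whereas the other SS mice were at or above 37.9 and the other AA mice at or below 12.5. The library labelled 5853 thus stood near SS mice and the library labelled 7078 near AA mice in both tissues. They were kept under their labels, and values without them are given beside the results they move.

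**Figure D1:**
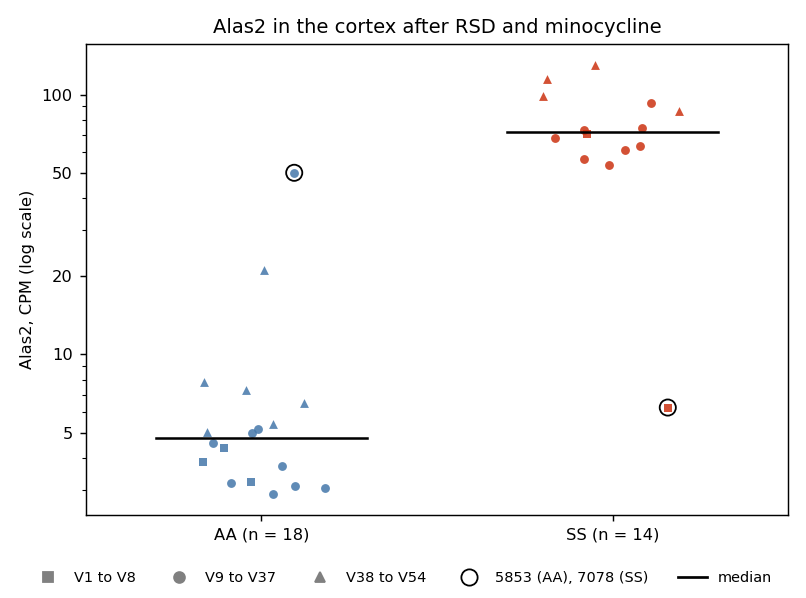
Alas2 level (CPM, log scale) of each cortex library of AA and SS mice after RSD and minocycline. Marker shapes give the 3 runs of library numbers, black lines are medians, and black circles mark 5853, which lies among AA mice at 49.97, and 7078, which lies among SS mice at 6.24.

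Several other features of the libraries touch the results. Reads on genes ranged from 20037825 to 107713193 in SS and from 19519114 to 83512852 in AA libraries, and unmapped reads from 4.74% to 36.2% and from 4.41% to 31.3%. Summed markers of cerebral cortex ranged from 1150 to 2410 CPM in SS and from 1480 to 2440 in AA mice, so that the labelled tissue was there in every library. Markers of striatum, the nucleus below the cortex, summed to 215 to 1610 CPM (median 434) in SS and to 176 to 638 CPM (median 243) in AA mice, and were at or above 400 CPM in 7 of 14 SS and 2 of 18 AA libraries. Markers of meninges summed to 170 to 1410 CPM (median 503) in SS and to 154 to 1010 (median 356) in AA mice, and those of choroid plexus to 155 to 311 and 215 to 312. The part of meninges in the results was not tested, and that of striatum and choroid plexus only through settings named below and in the closing section. AA mouse 9851 had the lowest summed level of brain endothelial genes in either group (458 CPM). It stood apart in other measures as well. Its share of reads outside genes was the highest in either group (13.9%), and its summed cortex markers were the lowest in AA mice (1480 CPM). Genes such as Vcp (163 CPM) and Csf1r (41.4 CPM) also had their lowest level there. The numbers in the sample descriptions fall into 3 runs, of 2 SS and 3 AA, 8 SS and 9 AA, and 4 SS and 6 AA libraries. What the runs stand for is not given in the labels, and 7078 is 1 of the 2 SS libraries of the smallest run.

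The promoters of 4 genes are printed because these genes carry main results below, first a red cell gene, then a pair of hypoxia genes and an interferon gene. Each is the stretch upstream of the gene's start in the RefSeq table (build GRCm38.p6), read 5′ to 3′ on the gene's strand and ended where the annotated exons begin (in Slc2a1 3 bases later, at the end of a match), and positions are those of an exact match in GRCm39. Capitals mark letters AGATAA or TGATAA for Alas2, ACGTG or GCGTG for Adm and Slc2a1, and GAAA, any 2 letters and GAAA for Isg15, on either strand. These letters are the cores that GATA factors, hypoxia-inducible factors and interferon-activated factors are known to bind.
Alas2, chrX:149330163-149330370, plus strand: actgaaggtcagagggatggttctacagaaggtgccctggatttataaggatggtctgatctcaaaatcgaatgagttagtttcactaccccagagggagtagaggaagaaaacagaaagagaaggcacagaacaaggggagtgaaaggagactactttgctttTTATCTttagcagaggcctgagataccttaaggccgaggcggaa
Adm, chr7:110226614-110226857, plus strand: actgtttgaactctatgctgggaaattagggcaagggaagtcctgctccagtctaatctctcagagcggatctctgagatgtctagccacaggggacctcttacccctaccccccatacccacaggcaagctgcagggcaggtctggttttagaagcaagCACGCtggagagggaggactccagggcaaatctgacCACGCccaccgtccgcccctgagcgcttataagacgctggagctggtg
Slc2a1, chr4:118965692-118965910, plus strand: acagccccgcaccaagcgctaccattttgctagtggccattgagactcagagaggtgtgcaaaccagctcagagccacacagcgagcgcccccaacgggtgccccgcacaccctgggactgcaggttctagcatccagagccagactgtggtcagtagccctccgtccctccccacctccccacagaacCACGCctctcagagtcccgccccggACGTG
Isg15, chr4:156285304-156285525, minus strand: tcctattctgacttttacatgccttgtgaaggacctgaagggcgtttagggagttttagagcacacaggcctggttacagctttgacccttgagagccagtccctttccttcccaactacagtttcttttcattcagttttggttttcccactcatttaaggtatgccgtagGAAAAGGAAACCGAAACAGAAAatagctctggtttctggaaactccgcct
In Alas2 the letters occur 1 time, in Adm and Slc2a1 2 times each and in Isg15 3 times with overlap. Of all 32851 promoter windows of 250 bases, 16.6% hold the GATA letters, 38.6% the hypoxia letters and 2.98% the interferon letters. The hypoxia letters were in all 4 hypoxia genes called higher, the GATA letters in 5 of the 9 red cell genes called higher that have a window (Alas2, Hba-a2, Hba-x, Isg20 and Trim10), and the interferon letters in 2 of 3 interferon genes called higher (Isg15 and Rsad2). A gene was counted if any of its windows held the letters, whereas the percentages above are shares of single windows. Of all 63 genes called higher that have a window, 35 held the hypoxia letters, 13 the GATA letters and 5 the interferon letters. A match describes the letters and is not a measured site.

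Across the genome, 87 of 17820 genes tested were called higher in SS + RSD + minocycline mice compared to AA + RSD + minocycline mice (edgeR quasi-likelihood test, Benjamini-Hochberg adjusted p below 0.05), or 0.488%, and 5 were called lower, or 0.0281%. Of the 92 genes called, 43 differed by more than 2-fold and 20 by less than 1.5-fold. Red cell genes, interferon genes, hypoxia genes and genes of activated endothelium were among those called higher, beside genes of the striatum. Without 5853 and 7078, 99 genes were called higher (0.558% of 17733) and 10 lower (0.0564%), and 88 of the 92 genes were called in both. In all 32 libraries, only for Hba-a2 was every SS library above every AA library. Without 5853 and 7078, this held for 17 genes (0.0959%) and in the opposite direction for 0 genes. Both libraries were singled out by Alas2, so for genes that vary with it this follows in part from that choice.

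Red cell genes were among those with the largest differences. Alas2 was 9.43-fold higher in SS + RSD + minocycline mice, with a log2 fold change of 3.24 ± 0.42 (SE) and an adjusted p of 2e-07. Leaving out 5853 and 7078 made the difference 14.6-fold (log2 fold change 3.86). As both were singled out by their Alas2 level, a larger difference and groups that do not overlap in this gene follow from that choice. For genes that vary with Alas2 they follow from it in part. Such values without both are given here and below as a description. Within the 3 runs of library numbers the log2 fold change was 3.27, 2.95 and 3.65, from the lowest to the highest numbers. Of the exonic bases of Alas2, 13.8% overlap the antisense gene Apex2, and whether counting used strand is not stated. The other 8 genes of heme synthesis, which every cell uses for its cytochromes, did not pass the test.

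Among 14 tested genes for red cell membrane and gas transport, 4 were called higher and none lower, with a median log2 fold change of 0.08 beside 0.0022 over all genes tested. Slc4a1, the band 3 anion exchanger that anchors the red cell membrane skeleton (chr11:102239650-102257029, minus strand), ranged from 0.490 to 15.5 CPM (median 7.22) in SS and from 0.0511 to 4.01 (median 0.247) in AA mice. The lowest SS library was again 7078 and the highest AA library 5853, and without them the groups were apart, with 3.99 as the lowest SS and 1.80 as the highest AA value. The log2 fold change was 3.92 ± 0.50 (adjusted p = 1.69e-07) and rose to 4.70 without both.

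Bpgm and Slc2a1, which other cells of the brain also use, differed by less. Bpgm makes 2,3-bisphosphoglycerate, the metabolite that loosens oxygen from hemoglobin. It ranged from 49.2 to 142 CPM (median 82.6) in SS and from 46.3 to 80.6 (median 57.4) in AA mice, so that the groups overlapped, with a log2 fold change of 0.61 ± 0.13 (adjusted p = 0.0045). Slc2a1, the GLUT1 glucose transporter of the blood-brain barrier (chr4:118965908-118996365), is described with the hypoxia genes. Several membrane skeleton genes were too low for the test, among them Epb42 with a median of 0.701 CPM in SS and 0.0378 in AA mice.

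Of 17 tested genes of reticulocytes and erythroid regulation, 4 were called higher and none lower (median log2 fold change 0.10). Trim10, a protein of the erythroid lineage, ranged from 0.1697 to 3.44 CPM (median 1.41) in SS and from 0 to 0.817 (median 0.0520) in AA mice. Its log2 fold change was 3.66 ± 0.49 (adjusted p = 4.64e-07). Tspo2, which takes part in cholesterol handling in erythroblasts, ranged from 0.132 to 2.33 CPM (median 1.19) in SS and from 0 to 1.01 (median 0.0908) in AA mice, with a log2 fold change of 3.16 ± 0.42 (adjusted p = 4.24e-07). In both genes the extremes that overlap were 7078 and 5853.
Isg20, an exonuclease that interferon induces and that red cell precursors express, ranged from 0.905 to 12.4 CPM (median 5.10) in SS and from 0.396 to 3.23 (median 0.809) in AA mice. The difference in log2 was 2.69 ± 0.34 (adjusted p = 1.69e-07). Fam46c, a poly(A) polymerase that stabilizes mRNAs and is now named Tent5c, ranged from 2.51 to 14.9 CPM (median 9.59) in SS and from 2.16 to 5.56 (median 2.44) in AA mice. Its log2 fold change was 1.80 ± 0.19 (adjusted p = 2.13e-09), and without 5853 and 7078 the lowest SS library, at 6.44, was above the highest AA library, at 4.43.

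Reads on mouse globin genes were few, and 3 of 10 such genes in the table were tested. Human genes stand in for the adult mouse globin genes in both genotypes and are not in the mouse annotation. Hba-x, the embryonic zeta-globin gene (chr11:32226400-32228116), was called higher. It ranged from 0.339 to 12.6 CPM (median 4.89) in SS and from 0.0579 to 2.88 (median 0.172) in AA mice, with a log2 fold change of 3.94 ± 0.47 (adjusted p = 2.93e-08). Hba-a2, an adult alpha-globin gene, ranged from 0.534 to 1.46 CPM in SS and from 0.0540 to 0.495 in AA mice, with medians of 0.756 and 0.275. Its SS libraries were all above its AA libraries, also 7078 at 0.566 and 5853 at 0.389, so that both libraries lay with their labels, unlike in Alas2 and Slc4a1. Its log2 fold change was 1.59 ± 0.38 (adjusted p = 0.024). Hba-a2 has a near-identical copy, Hba-a1, and reads that fit both are not counted on either. As an adult gene it is of the kind replaced in these mice, and where its few reads come from was not tested.

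**Figure D2:**
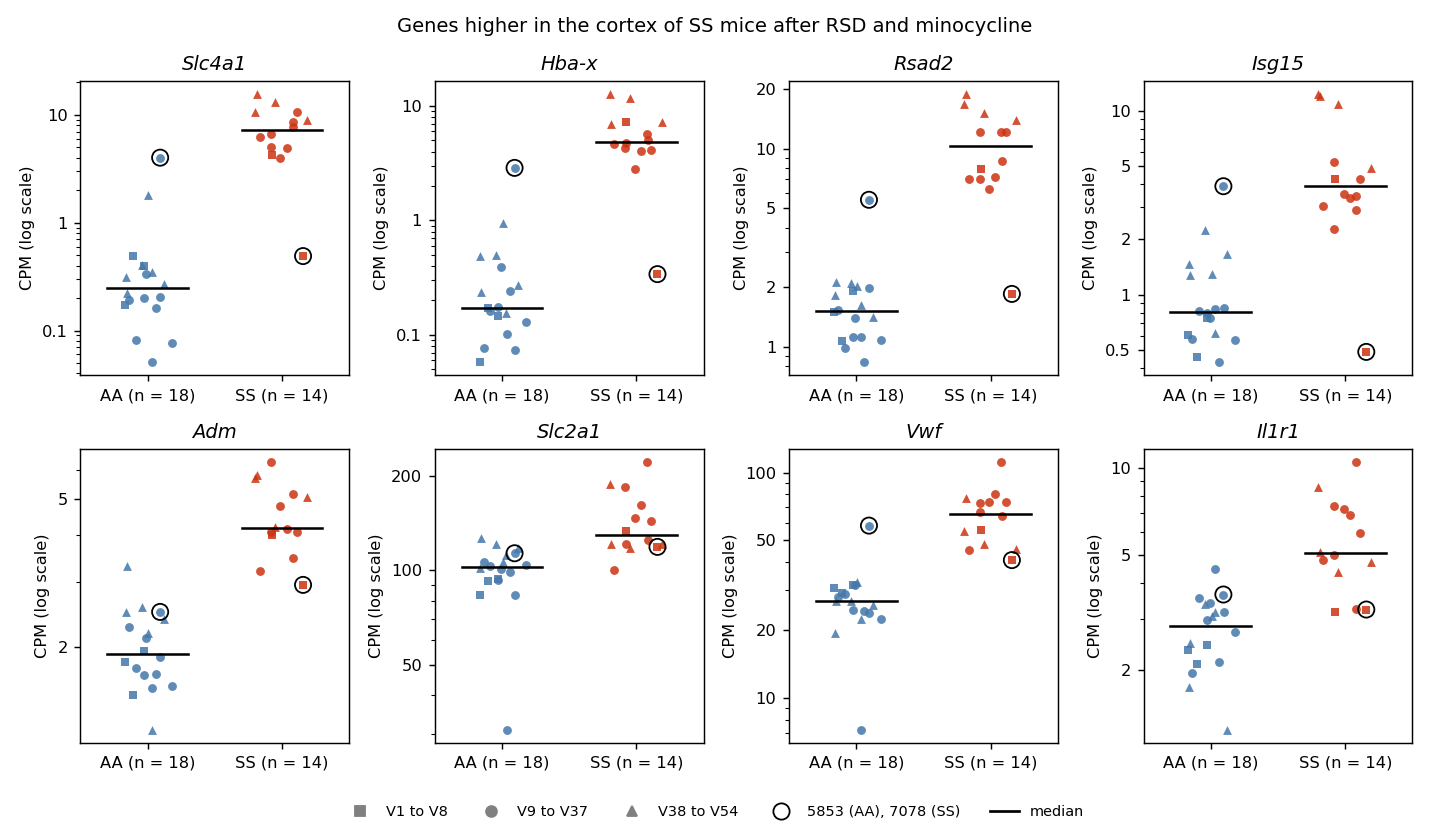
Levels (CPM, log scales) of 8 genes called higher in SS mice, 1 point per cortex library, with symbols as in the plot of Alas2. In Slc4a1, Hba-x, Rsad2 and Isg15 the SS library 7078 lies among AA mice and the AA library 5853 near SS mice. In Vwf 5853, at 58.2, is the highest AA library and lies within the SS range, and 7078, at 40.9, is the lowest SS library. In Adm, Slc2a1 and Il1r1 5853 lies among the other AA mice, and 7078 lies within the AA range, at 2.94, 119 and 3.24.

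The red cell genes also varied together among SS + RSD + minocycline mice. Over the 13 SS mice other than 7078, which lies apart, log2 CPM of Alas2 and of 10 genes called in these lists were compared (permutation tests with 100000 resamples, 2-sided, adjusted over 10). Pearson's r with Alas2 was 0.899 for Slc4a1 (Spearman's rho 0.912, p = 4e-05 and 8e-05, adjusted p = 0.0001 and 0.00027). For Isg20 r was 0.943 and rho 0.956, each with p = 1e-05, the smallest that the permutations can give, and adjusted p = 6.7e-05 and 0.0001. For Trim10 r was 0.907 and rho 0.918 (p = 2e-05 and 7e-05, adjusted p = 6.7e-05 and 0.00027). Bpgm followed with r = 0.793 and rho = 0.747 (p = 0.0013 and 0.0048, adjusted p = 0.0019 and 0.0069). For Slc2a1 r was -0.344 and rho -0.407 (p = 0.24 and 0.17, adjusted p = 0.27 and 0.19), and for Hba-a2 r was 0.305 and rho 0.154 (p = 0.31 and 0.62, adjusted p = 0.31 and 0.62). Without the 2 mice farthest from the median of Alas2, 9890 and 9895, r was 0.844 for Slc4a1, 0.875 for Isg20, 0.839 for Trim10, 0.765 for Bpgm, -0.153 for Slc2a1 and 0.14 for Hba-a2. Tspo2, Fam46c and Hba-x had r between 0.761 and 0.824. All these points share library sizes and the same mice. The permutations did not keep the runs of library numbers apart. In the 4 SS libraries of the highest numbers Alas2 was at 86.1 to 129 CPM, and in the others at 53.5 to 92.4. Isg20 was at or above 7.70 CPM in these 4 and at or below 5.85 in the others. Bpgm was at or above 115 CPM in these 4 and at or below 103 in the others. How far r reflects the run was not tested. Over all 14 SS libraries, the genes with the highest r with Alas2 at a mean log2 CPM of at least 1 were Slc4a1 (0.969), Apol11b (0.958), Hba-x (0.947), Isg20 (0.944) and Rsad2 (0.925), given as a description. The library 7078 shapes this ranking. Over the 13 others the highest were Isg20 (0.942), Ube2l6 (0.922), Slc4a1 (0.9), A430033K04Rik (0.893) and Rbm15b (0.892), without Apol11b, Hba-x and Rsad2.

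Apol11b, a member of the apolipoprotein L family, had the largest log2 fold change of all genes tested. It ranged from 0.189 to 18.96 CPM (median 6.55) in SS and from 0 to 1.71 (median 0.0908) in AA mice, and 7078 and 5853 were again the overlapping extremes. The log2 fold change was 4.91 ± 0.60 (adjusted p = 5.02e-08).

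Genes for clearance of free heme and hemoglobin and for iron storage and transport were not called, with 0 of 11 tested in each list. Hmox1, heme oxygenase 1, which breaks down heme, ranged from 3.61 to 5.91 CPM in SS and from 2.71 to 6.76 in AA mice, with a log2 fold change of 0.06 ± 0.11 (adjusted p = 0.933). Slc40a1, the iron exporter ferroportin, had medians of 9.23 and 9.87 CPM and a log2 fold change of -0.04 ± 0.09 (adjusted p = 0.942).

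Interferon-stimulated genes formed the next group. Of 20 tested, 3 were called higher and none lower, the median log2 fold change was 0.59, and 18 had a positive sign. Rsad2, the antiviral enzyme viperin (chr12:26492745-26506451, minus strand), ranged from 1.85 to 18.8 CPM (median 10.4) in SS and from 0.837 to 5.52 (median 1.52) in AA mice. The lowest SS library was 7078 and the highest AA library was 5853, as for Alas2, and without them the lowest SS value was 6.27 and the highest AA value 2.12. The log2 fold change was 2.60 ± 0.27 (adjusted p = 7e-10), and 2.88 without both. Isg15, a ubiquitin-like protein (chr4:156283883-156285303, minus strand), ranged from 0.490 to 12.3 CPM (median 3.90) in SS and from 0.432 to 3.89 (median 0.805) in AA mice, with a log2 fold change of 2.24 ± 0.34 (adjusted p = 1.37e-05). Of its exonic bases, 31.1% overlap an antisense gene. Oasl2, a member of the oligoadenylate synthetase family, ranged from 2.30 to 17.5 CPM (median 4.03) in SS and from 1.404 to 3.83 (median 2.90) in AA mice, with a log2 fold change of 0.84 ± 0.19 (adjusted p = 0.0105).

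Other interferon genes differed by less. Ifit1, which binds foreign RNA, had medians of 2.29 and 1.93 CPM (log2 fold change 0.35 ± 0.19, adjusted p = 0.651). Irf7 and Ifi44 missed the threshold with all libraries (adjusted p = 0.0808 and 0.0746) and passed it without 5853 and 7078 (log2 fold change 0.89 and 1.32, adjusted p = 0.0359 and 0.0416), which made 5 genes of the list called. Ube2l6, the conjugating enzyme that attaches Isg15 to proteins and is also known from late red cell precursors, stood in no list and was called. It ranged from 6.203 to 26.4 CPM (median 14.6) in SS and from 3.97 to 12.5 (median 4.96) in AA mice, with a log2 fold change of 1.402 ± 0.18 (adjusted p = 2.72e-07).

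Of 19 tested hypoxia genes, 4 were called higher and none lower, and the median log2 fold change was 0.14. Adm, which encodes the vasodilator peptide adrenomedullin (chr7:110226858-110229027), ranged from 2.94 to 6.27 CPM (median 4.18) in SS and from 1.20 to 3.31 (median 1.92) in AA mice. The groups overlapped by little, with 7078 as the lowest SS library at 2.94 and 5853 inside the AA range at 2.49. The log2 fold change was 1.15 ± 0.13 (adjusted p = 2.14e-08), and it was 0.95, 1.22 and 1.15 within the 3 runs of library numbers. Of its exonic bases, 31.9% overlap an antisense gene.
Ankrd37, a target of hypoxia-inducible factor, ranged from 4.75 to 13.2 CPM (median 7.94) in SS and from 3.74 to 7.13 (median 5.24) in AA mice, with a log2 fold change of 0.66 ± 0.12 (adjusted p = 0.000371). As 81.4% of its exonic bases overlap Ufsp2 on the other strand, its reads and those of Ufsp2 may not be told apart. Ddit4, an inhibitor of mTOR signalling that hypoxia and glucocorticoids induce, ranged from 23.9 to 73.3 CPM (median 42.1) in SS and from 17.5 to 44.3 (median 30.7) in AA mice, with a log2 fold change of 0.60 ± 0.13 (adjusted p = 0.00768). Slc2a1 ranged from 99.95 to 221 CPM (median 129) in SS and from 30.9 to 127 (median 102) in AA mice, with a log2 fold change of 0.53 ± 0.10 (adjusted p = 0.00083). Its lowest AA library was 9851, and without that mouse the log2 fold change was 0.47. Vegfa, the vessel growth factor, had medians of 111 and 88.4 CPM and did not pass the test (0.33 ± 0.12, adjusted p = 0.326), nor did Car9 (0.73 ± 0.43, adjusted p = 0.672).

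Genes of activated endothelium had a median log2 fold change of 0.39, all 9 tested had a positive sign, and 3 were called. Vwf, the von Willebrand factor that tethers platelets (chr6:125523737-125663642), ranged from 40.9 to 111 CPM (median 65.5) in SS and from 7.20 to 58.2 (median 26.9) in AA mice. The highest AA library was 5853 and the lowest was 9851, and without 5853 and 7078 all SS libraries (lowest 45.5) were above all AA libraries (highest 32.6). The log2 fold change was 1.25 ± 0.16 (adjusted p = 2e-07), and 1.19 without 9851. Il1r1, the interleukin 1 receptor through which stress is known to act on brain endothelium, ranged from 3.18 to 10.5 CPM (median 5.07) in SS and from 1.24 to 4.49 (median 2.84) in AA mice. Its log2 fold change was 1.04 ± 0.17 (adjusted p = 3.59e-05). Edn1, the vasoconstrictor endothelin 1, ranged from 2.90 to 6.93 CPM (median 3.94) in SS and from 1.23 to 4.501 (median 2.84) in AA mice, with a log2 fold change of 0.63 ± 0.15 (adjusted p = 0.0201). The adhesion molecules Vcam1 (0.18 ± 0.13, adjusted p = 0.753) and Icam1 (0.33 ± 0.12, adjusted p = 0.348) did not pass the test, and Sele and Selp, the endothelial selectins, had too few reads for one.

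Other vascular genes showed smaller differences. Sox17, a transcription factor of arterial endothelium, was the 1 of 22 blood-brain barrier and endothelial genes called. It ranged from 6.402 to 12.1 CPM (median 8.39) in SS and from 4.32 to 8.52 (median 6.38) in AA mice, with a log2 fold change of 0.43 ± 0.10 (adjusted p = 0.0163). Summed over the list, the level was 534 to 829 CPM (median 632) in SS and 458 to 718 (median 573) in AA mice, and Cldn5, the main tight junction protein, had a log2 fold change of 0.20 ± 0.16 (adjusted p = 0.815). Adgrl4, an adhesion receptor of sprouting endothelium, was the 1 of 14 tip cell and angiogenesis genes called (0.44 ± 0.11, adjusted p = 0.027), with medians of 22.3 CPM in SS and 16.2 in AA mice.
Of 12 genes of pericytes and smooth muscle, 2 were called. Kcnj8, the potassium channel subunit of pericytes, ranged from 3.83 to 8.36 CPM (median 5.40) in SS and from 2.11 to 5.77 (median 3.66) in AA mice (log2 fold change 0.57 ± 0.12, adjusted p = 0.00896). Vtn, vitronectin, which brain pericytes secrete, had medians of 68.7 and 51.2 CPM (0.41 ± 0.10, adjusted p = 0.0266, and 0.0647 without SS mouse 7076). In the nitric oxide and arginine list, 0 of 11 were called, and Nos3, the endothelial nitric oxide synthase, had medians of 11.4 and 10.4 CPM (0.15 ± 0.09, adjusted p = 0.679).

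Immune genes were next examined. None of the 12 homeostatic microglia genes passed the test, and their summed level was 316 to 586 CPM (median 383) in SS and 310 to 535 (median 363) in AA mice. P2ry12, the purine receptor by which resting microglia sense ATP, had medians of 29.6 and 30.01 CPM (log2 fold change 0.09 ± 0.12, adjusted p = 0.915), and Tmem119 of 21.3 and 17.97 CPM (0.01 ± 0.11, adjusted p = 0.989). Among 15 tested genes of reactive microglia and macrophages 1 was called, Cd74, the invariant chain of MHC class II. It ranged from 1.87 to 12.6 CPM (median 5.19) in SS and from 1.31 to 6.36 (median 2.20) in AA mice, with a log2 fold change of 1.08 ± 0.27 (adjusted p = 0.0353). The call was lost without AA mouse 9851 (adjusted p = 0.0518), AA mouse 5896 (0.0575) or SS mouse 7076 (0.0523), and without 9851 the list held 0 calls. In the list of complement and MHC genes Cd74 and Tap1, the peptide transporter for MHC class I, were called of 14 tested. Tap1 had medians of 4.29 and 3.03 CPM (0.49 ± 0.11, adjusted p = 0.0131), and was the only call of this list without 9851.
Blood leukocyte markers were sparse, with 4 of 18 tested, and summed to 4.10 to 18.3 CPM (median 11.3) in SS and 4.13 to 8.58 (median 5.71) in AA mice. The sum was 12.7 to 18.3 CPM in SS libraries at or above 400 CPM of striatum markers and 4.10 to 9.94 in the other SS libraries. With the striatum level as a term, described below, 0 genes of this list were called. Whether blood leukocytes differ in number was not tested. Cd79a, a signalling chain of the B cell receptor, ranged from 0.292 to 0.995 CPM (median 0.491) in SS and from 0.145 to 0.520 (median 0.276) in AA mice (0.88 ± 0.21, adjusted p = 0.0229). Cd4, the coreceptor of helper T cells, ranged from 0.566 to 7.97 CPM (median 2.32) in SS and from 0.438 to 2.22 (median 0.905) in AA mice (1.69 ± 0.40, adjusted p = 0.0244). Ptprc, the CD45 protein of all leukocytes and microglia, had medians of 3.65 and 3.12 CPM (0.29 ± 0.14, adjusted p = 0.581). Osmr, the oncostatin M receptor of reactive astrocytes, was the 1 of 11 astrocyte genes called (0.61 ± 0.13, adjusted p = 0.00495, medians 5.36 and 3.45 CPM), whereas Gfap had medians of 108 CPM in SS and 128 in AA mice (-0.26 ± 0.17, adjusted p = 0.723).

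Genes of the striatum were higher in SS mice, and how far the dissection accounts for them was not tested. Of 9 listed, 5 were called and all 9 had a positive sign, with a median log2 fold change of 1.09. Without AA mouse 9851, 3 were called. Adora2a, the adenosine receptor of striatal output neurons, ranged from 1.58 to 54.2 CPM (median 8.62) in SS and from 1.07 to 10.2 (median 2.04) in AA mice (2.35 ± 0.49, adjusted p = 0.00515). Drd2, the dopamine D2 receptor, had medians of 7.08 and 1.24 CPM (2.18 ± 0.56, adjusted p = 0.0461), and its call was lost without 9851 (adjusted p = 0.0634), 5853 (0.0544) or AA mouse 5896 (0.0757). Rgs9, which shortens G protein signals in the striatum, had medians of 29.9 and 15.8 CPM (1.28 ± 0.27, adjusted p = 0.00811). Their SS and AA ranges overlapped for each gene.

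With the summed striatum level as a term of the model, a setting chosen after the data were seen, 45 genes were called (0.253% of 17820), 37 of them among the 92. Leaving out the 9 libraries at or above 400 CPM gave 27 calls (0.146% of 18456), 25 of them among the 92. With the term, the 3 striatal genes named above had log2 fold changes from -0.15 to 0.28 (adjusted p between 0.502 and 0.854), which follows from their being part of the sum, and Cd4 had 0.14 (adjusted p = 0.838). Alas2 (2.75, adjusted p = 8.31e-06), Slc4a1 (3.27, 6.37e-06), Rsad2 (2.14, 6.83e-08), Isg15 (1.80, 0.00442), Adm (1.12, 1.17e-06), Vwf (1.11, 1.92e-05), Il1r1 (1.02, 0.000754), Slc2a1 (0.49, 0.0124), Ankrd37 (0.63, 0.00509), Ddit4 (0.59, 0.0462), Sox17 (0.55, 0.000755) and Kcnj8 (0.65, 0.00507) were still called. In the libraries under 400 CPM, 3 of these 12 were not called, Isg15 (1.56, adjusted p = 0.129), Ddit4 (0.57, 0.206) and Kcnj8 (0.61, 0.0751). Not called with the term were Bpgm (0.49, adjusted p = 0.103), Hba-a2 (1.402, 0.147), Oasl2 (0.57, 0.234), Edn1 (0.55, 0.142), Vtn (0.41, 0.0904), Adgrl4 (0.28, 0.273), Osmr (0.43, 0.152), Cd74 (1.05, 0.114), Tap1 (0.42, 0.131) and Cd79a (0.80, 0.131).

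**Figure D3:**
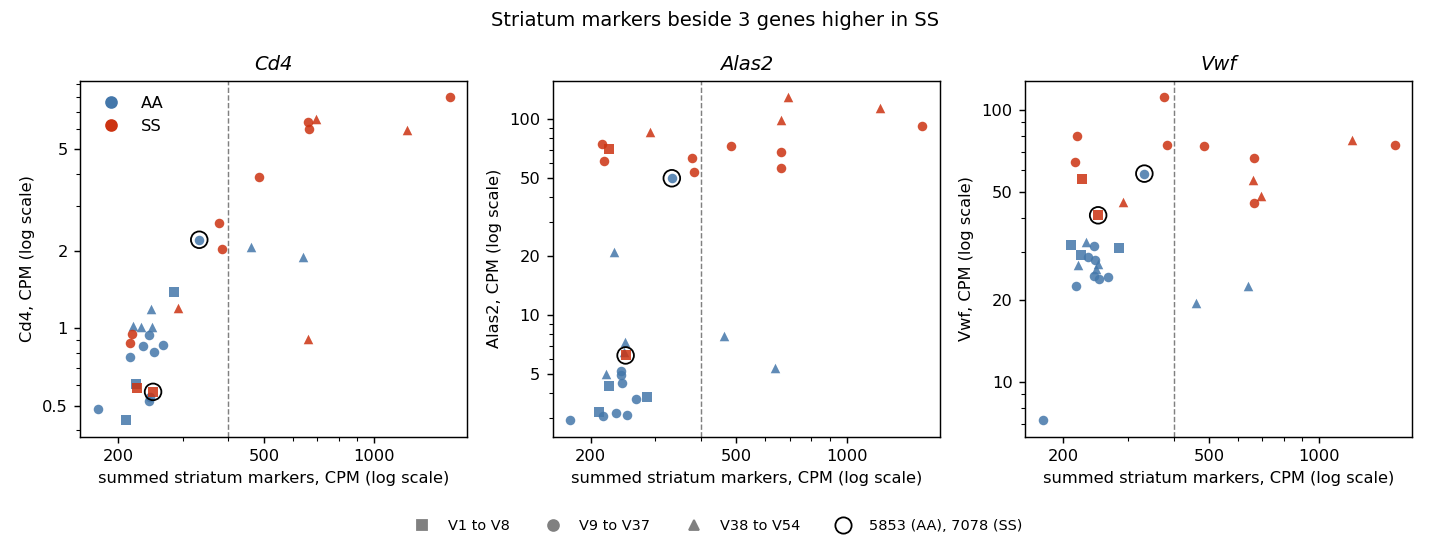
Levels of Cd4, Alas2 and Vwf (CPM, log scales) against the summed level of 9 striatum markers (CPM, log scale) in each cortex library, with AA mice in blue and SS mice in red. The dashed line marks 400 CPM, and 7 SS and 2 AA libraries lie at or above it. Cd4 is high mainly in the SS libraries to the right of the line, whereas Alas2 and Vwf are high in SS libraries on both sides.

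Several genes of no list were named for the size of their change. 8430408G22Rik, now named Depp1, an early target of FOXO factors and progesterone, ranged from 3.56 to 13.2 CPM (median 7.04) in SS and from 0.876 to 4.01 (median 1.71) in AA mice, with a log2 fold change of 1.81 ± 0.21 (adjusted p = 1.77e-08). It was also called with the striatum term (1.82, adjusted p = 3.5e-07). Fmo2, a flavin monooxygenase, ranged from 3.21 to 25.2 CPM (median 11.5) in SS and from 1.401 to 9.22 (median 4.14) in AA mice (1.49 ± 0.24, adjusted p = 3.59e-05). Ptprv, a receptor-type protein phosphatase, had medians of 4.76 and 1.23 CPM (1.84 ± 0.45, adjusted p = 0.0345, and 0.0546 without AA mouse 5896) and was not called with the striatum term (0.77, adjusted p = 0.502).

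The lower genes were few. Tuba1c, an alpha-tubulin gene (chr15:98927748-98936266), ranged from 0.547 to 16.05 CPM (median 0.911) in SS and from 0.658 to 68.4 (median 5.63) in AA mice. AA libraries lay either at or below 1.61 CPM or at or above 9.65, so that none was near the AA median. SS libraries lay at or below 1.95, except 7076 at 16.05. The ranges overlapped over most of the SS range, and the difference lies in which mice were at the higher level. The log2 fold change was -3.19 ± 0.76 (adjusted p = 0.0229), and -4.18 without SS mouse 7076. Dusp16, a phosphatase that acts on JNK, had medians of 14.4 and 16.6 CPM (-0.31 ± 0.08, adjusted p = 0.0267), and Acss2, which makes acetyl-CoA from acetate, of 55.2 and 61.5 CPM (-0.22 ± 0.06, adjusted p = 0.0477). The call of Dusp16 was lost without 7076 (adjusted p = 0.0626) or 5896 (0.0624), and that of Acss2 without 9851 (0.0613), 7076 (0.125), 5853 (0.0574) or 5896 (0.0897). Tuba1c has close paralogs, and reads that fit several were not counted. With the striatum term none of the 3 was called (adjusted p between 0.0685 and 0.301).

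Stress-related and metabolic lists held few calls. In the list of glucocorticoid targets, 1 of 14 was called and 12 had a positive sign, with a median log2 fold change of 0.24. The gene called was Map3k6, a stress-activated kinase, at 1.13 to 9.87 CPM (median 3.16) in SS and 1.57 to 3.02 (median 2.17) in AA mice (0.82 ± 0.20, adjusted p = 0.0315). Fkbp5, the co-chaperone by which the receptor limits its own action, had medians of 40.7 and 32.3 CPM (0.31 ± 0.13, adjusted p = 0.443), and Sgk1 of 83.3 and 70.3 CPM (0.51 ± 0.17, adjusted p = 0.257). No gene was called among 18 neuronal immediate early genes, 14 clock genes, 12 myelin genes, 16 genes of cholesterol synthesis, 28 genes of sphingolipid metabolism, 12 NRF2 targets, 11 serotonin receptors or 7 sirtuins, with median log2 fold changes between -0.15 and 0.02. The sphingolipid list does not hold the ceramidase gene Acer2, which was called higher and is described under other observations. A positive sign was found in 1 of 16 genes of cholesterol synthesis, 2 of 12 myelin, 4 of 14 clock and 8 of 28 sphingolipid genes, in 7 of 12 NRF2 targets, 11 of 18 immediate early genes, 6 of 11 serotonin receptors and 3 of 7 sirtuins. The immediate early gene Fos ranged from 7.49 to 35.3 CPM in SS and from 4.14 to 49.4 in AA mice (-0.01 ± 0.28, adjusted p = 0.998).

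A further list held genes that the study names. It is not independent of these samples. The study names them for other comparisons. Examples are control SS against AA mice (Foxf1), SS + RSD mice (Csf1r and Ctnnb1), and SS + RSD + minocycline against SS + RSD mice (Bdnf and Adora1). The values below are therefore no test of what the study reports for them. Of 26 tested, 0 were called with or without 5853 and 7078, and log2 fold changes ran from -0.18 (Adora1) to 0.37 (Foxf1). Foxf1, a transcription factor of mesenchyme and endothelium, had medians of 1.12 CPM in SS and 0.851 in AA mice (0.37 ± 0.15, adjusted p = 0.436). Csf1r, the growth factor receptor on which microglia depend, had medians of 99.1 and 89.9 CPM (0.06 ± 0.10, adjusted p = 0.927), Cx3cr1, the fractalkine receptor, of 49.3 and 46.6 CPM (adjusted p = 1), Ctnnb1, beta-catenin, of 347 and 359 CPM (adjusted p = 0.994), and Bdnf, the neurotrophin, of 19.8 and 21.7 CPM (-0.13 ± 0.11, adjusted p = 0.801).

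Leaving out 5853 and 7078 changed few calls. Gatsl3, Nfkbia, Stra6 and Trim47 were called only with both (adjusted p between 0.0399 and 0.0488 with them, and between 0.0622 and 0.0774 without). In the other direction 21 genes were called only without both, among them Pttg1, securin, whose lowest SS value was then above the highest AA value, Drd1, the dopamine D1 receptor, and Stat6, the transducer of interleukin 4 signals, which was lower. Stat6 had medians of 17.6 CPM in SS and 23.4 in AA mice, with a log2 fold change of -0.33 with all libraries (adjusted p = 0.242).

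**Figure D4:**
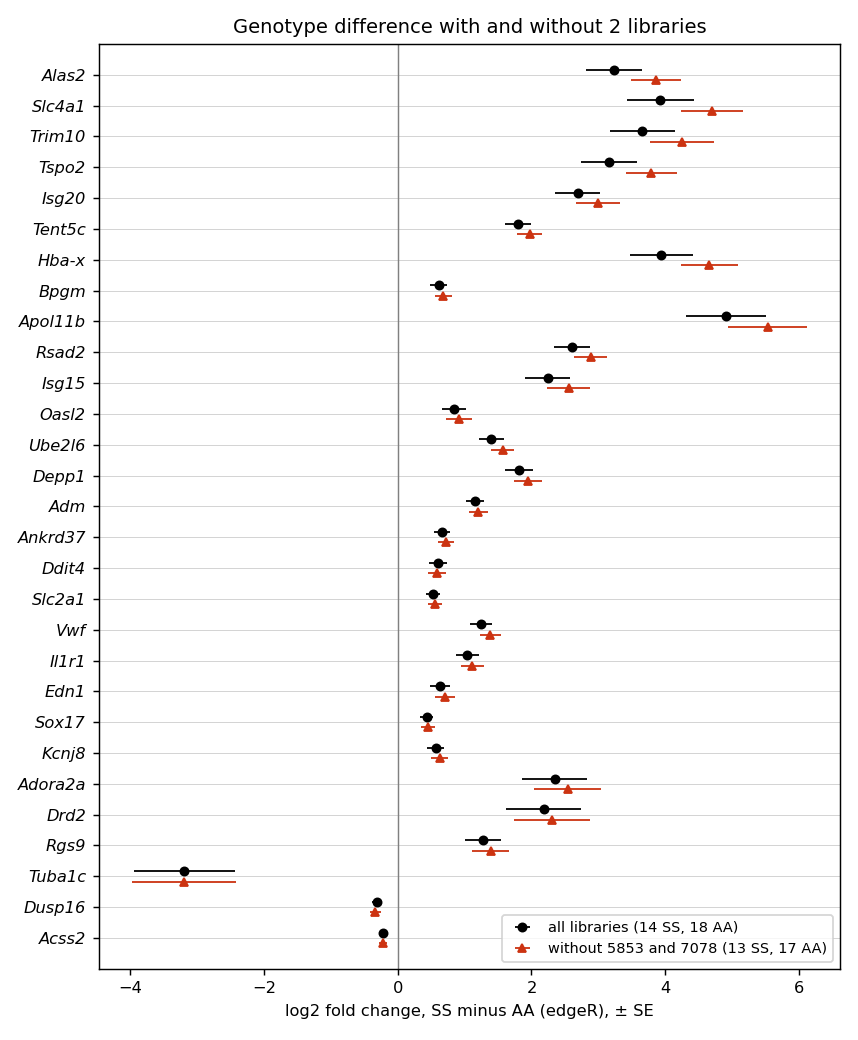
Log2 fold change of SS against AA mice (horizontal axis, edgeR, bars are ± SE) for 29 named genes with all 32 libraries (black circles) and without 5853 and 7078 (red triangles). Without both libraries, red cell and interferon genes lie further from 0, as for Alas2 (3.24 and 3.86), and hypoxia genes move little, as for Adm (1.15 and 1.21). Both were singled out by Alas2, so a larger change in genes that vary with it follows in part from that choice.

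Finally, the difference was set beside that in control cortex and in the hippocampus. In control cortex (8 SS and 12 AA mice, without a further AA library whose labels disagree on its tissue), 34 genes were called (0.191% of 17820), and 23 of them were among the 92 genes called after RSD and minocycline. The AA control library labelled 5844 had Alas2 at 99.3 CPM, where the other AA controls were at or below 11.4 and the SS controls ran from 51.5 to 120. Without 5844, 5853 and 7078, 41 genes were called in control cortex, 27 of them among the 92. Alas2 had a log2 fold change of 2.85 in control cortex and 4.19 without those libraries, Rsad2 of 2.30 and 2.93, Vwf of 1.45 and 1.63, and Adm of 0.83 and 0.93, and each was called both times. Ddit4 had -0.02 (adjusted p = 0.979), Adora2a 0.01 (adjusted p = 0.998) and Map3k6 -0.18 (adjusted p = 0.906) in control cortex. The test of the difference between both genotype effects called 0 of 17820 genes (0%), with 345 at an unadjusted p under 0.05 by edgeR and 396, also with 0 called, by DESeq2. Both counts are below the share of 0.05 that such a threshold lets through where no gene differs. For Ddit4 the difference between both genotype effects was 0.63 with an unadjusted p of 0.00439, for Map3k6 1.01 with 0.00362, and for Alas2 0.38 with 0.558. None of them passed adjustment. Some control libraries of both genotypes come from a further run of library numbers that holds no library after RSD and minocycline. The smallest run of libraries after RSD and minocycline holds no control library. Treatment and run can therefore not be fully told apart in these differences.

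In the hippocampus of the same mice, 67 of 17749 genes (0.377%) were called. Of the 92 cortex genes 85 were tested there, 35 were called (35 of the 67 there) and 77 had the same sign. As the mice are the same, this is no independent repeat. Alas2 (3.22, adjusted p = 2.82e-07), Slc4a1 (3.67, 2.12e-07), Rsad2 (2.52, 2.56e-11), Adm (1.44, 2.88e-08), Vwf (1.12, 6.69e-05), Slc2a1 (0.45, 0.000144) and Adgrl4 (0.52, 0.000127) were called there. Il1r1 (0.32, adjusted p = 0.735), Oasl2 (0.19, 1) and Sox17 (0.34, 0.219) were not. Striatal genes had small differences in the hippocampus, as for Adora2a (0.22, adjusted p = 1) and Drd2 (-0.18, 1). Tuba1c was called lower in both tissues (-3.43, adjusted p = 0.00534 in the hippocampus).

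**Figure D5:**
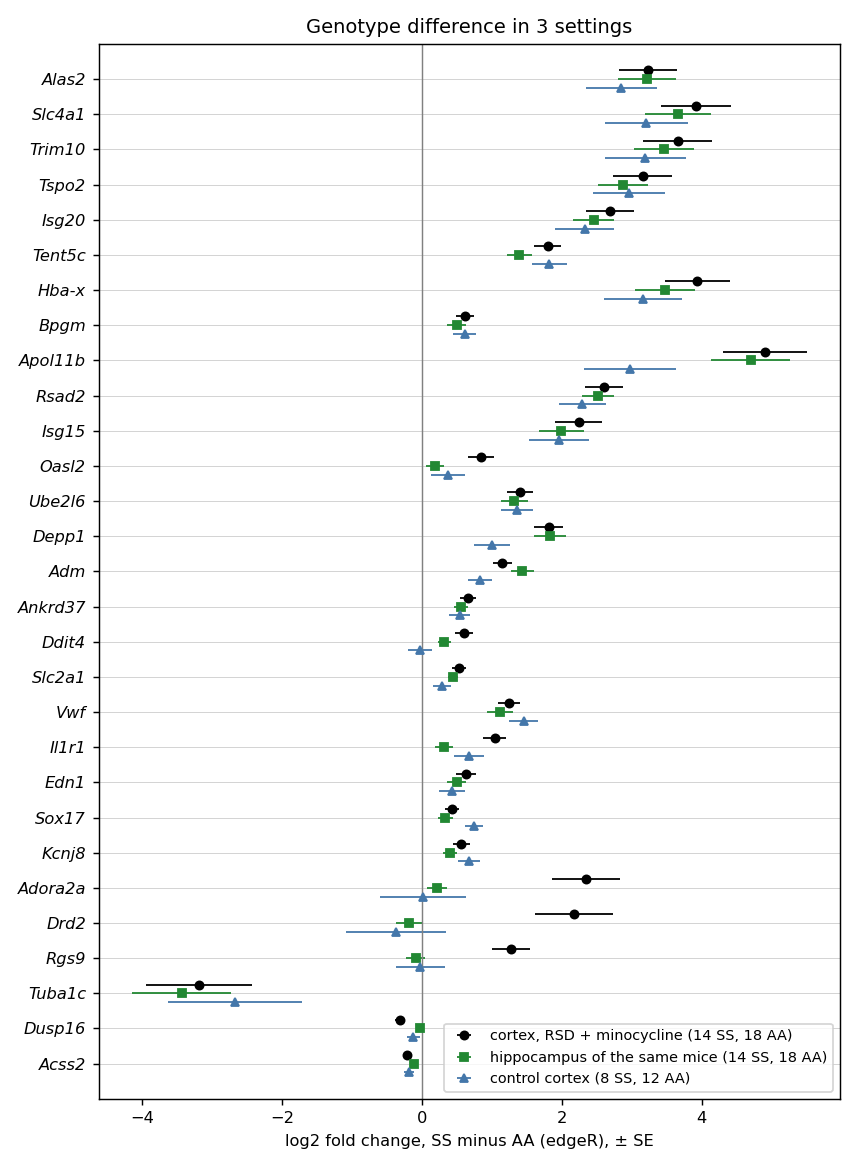
Log2 fold change of SS against AA mice (horizontal axis, edgeR, bars are ± SE) for 29 named genes in the cortex after RSD and minocycline (black circles), in the hippocampus of the same mice (green squares) and in control cortex (blue triangles). Red cell genes, Rsad2, Adm and Vwf lie to the right of 0 in all 3, and the striatal genes Adora2a, Drd2 and Rgs9 lie above 1 in the treated cortex and at or below 0.22 in the other 2.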

How the data were processed

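Polyadenylated RNA of the cortex and hippocampus was sequenced by the authors as directional single reads, aligned to GRCm39 with STAR and counted per GENCODE gene while mapping. The deposited tables hold counts per gene and library without normalization. Versions and the strand setting are not given in the sources used here. Of 55416 genes, 54749 were found in a GENCODE annotation of GRCm39, which gave positions and antisense overlap. Summary lines that name no gene stayed out of library sizes, and 3 columns were left out, 2 of the hippocampus table and 1 of the cortex table, the latter from an AA control mouse whose labels name both tissues.

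All 66 cortex libraries in 8 groups entered one model in edgeR 4.0.16 (R 4.3.3). Genes passed filterByExpr over the groups compared, libraries were scaled by TMM, and the quasi-likelihood test was adjusted by Benjamini-Hochberg over all genes tested. A gene was called at an adjusted p below 0.05. Levels are CPM, and log2 CPM used a prior count of 2. DESeq2 1.42.0 served as an alternative. Scripts were tested on simulated data.

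The members, the lists and the tests were chosen with earlier results of these data known. Named genes were, among those called, up to 10 higher and 10 lower ones of largest change at a mean log2 CPM of at least 1, and up to 4 of each list, beside Alas2 and genes that the study names. Some genes that this rule takes are not reported here. The labels give no cage or litter, so p-values measure the spread between mice and treat them as independent. The study describes RSD in cages shared by mice of the same genotype, and likeness within a cage was not tested. The number of mice sets the precision, and depth ranged from 19519114 to 107713193 reads on genes.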

Additional observations from a re-analysis of the deposited data

How the results depend on the processing

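Of 92 genes called, the number moved to 143 with the filter over all groups, 168 with the run of library numbers as a term, 60 in the mice of 1 number series, 45 with the striatum level as a term and 27 in libraries under 400 CPM. It was 53 without 5853 and 7078 plus the striatum term, 222 without both plus the run term, and 36, 15 and 0 in the runs of 17, 10 and 5 libraries alone. RLE size factors (99), no filter (132), a model of the 2 groups (82), DESeq2 (126), and leaving out 7076 (106), 9851 (101) or 5853 and 7078 (109) kept it within 1.5 times. Fewer genes or mice were compared in the smaller runs, and the causes of the other moves were not tested. The test between treated and control cortex called 0 genes in each alternative run, and the hippocampus gave 65 and 88 calls. With the striatum term Drd2 fell to -0.15 and Drd1 to -0.13 in log2. Genes near 0 changed sign. Plpp3 moved to 0.0051 (RLE and DESeq2), 0.0098 (2 groups), 0.011 (run term and without the library of highest choroid plexus markers), 0.023 (share outside genes), 0.027 (1 series) and 0.0024 (without 7078). Cx3cr1 moved to 0.011, 0.0050 (no filter), 0.0054 (filter over all groups), 0.016, 0.017, 0.032, 0.022, 0.017 (without both), 0.024 and 0.0083 in such settings, Ctnnb1 to -0.0021 and -0.0014, Ormdl2 to 0.00052, 0.012, 0.021 and 0.011, and Abhd6 to -0.032, -0.0020 and -0.0030. No paired analysis was possible because the labels give the mice of these groups no shared replicate numbers. Depth limits genes below about 1 CPM, such as most mouse globins.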

Other observations

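The genes in this part were picked after their values were seen, and no list holds them. Endothelial and vessel-related genes were among the 57 genes called that stand in no list. Cxcl12, the chemokine by which endothelium and meninges hold leukocytes and progenitors, ranged from 72.2 to 159 CPM (median 114) in SS and from 33.3 to 127 (median 79.0) in AA mice (log2 fold change 0.53 ± 0.11, edgeR adjusted p = 0.00383). Eng, the endoglin coreceptor for BMP and TGF-beta ligands, had medians of 31.7 and 23.9 CPM (0.42 ± 0.09, adjusted p = 0.00896), and Smad6, an inhibitor of BMP signals, of 2.02 and 1.44 CPM (0.63 ± 0.15, adjusted p = 0.0345). Smad6 was not called without AA mouse 9851 (adjusted p = 0.0531) or SS mouse 7076 (0.0645), and in libraries under 400 CPM of striatum markers none of the 3 was (adjusted p between 0.144 and 0.382). All 3 were also called in control cortex (Cxcl12 0.82, Eng 0.69, Smad6 0.94, adjusted p = 0.000462, 0.000462 and 0.00861). Acer2, an alkaline ceramidase that releases sphingosine in red cells and other tissues, ranged from 20.3 to 48.5 CPM (median 35.9) in SS and from 10.2 to 32.7 (median 15.98) in AA mice (1.02 ± 0.17, adjusted p = 0.000109). Its highest AA library was 5853 and its lowest SS library 7078.

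Ch25h, which makes the oxysterol 25-hydroxycholesterol and is induced by interferon, ranged from 0.225 to 2.41 CPM (median 0.738) in SS and from 0.0974 to 0.5003 (median 0.249) in AA mice (1.70 ± 0.25, adjusted p = 3.83e-06). In control cortex its log2 fold change was 0.24 (adjusted p = 0.902), the difference between both was 1.46 with an unadjusted p of 0.000627 and did not pass adjustment, and 50.3% of its exonic bases overlap an antisense gene. Chat, choline acetyltransferase, had medians of 1.14 and 0.418 CPM (2.51 ± 0.48, adjusted p = 0.00135), and Slc5a7, the choline transporter, of 1.22 and 1.13 CPM with overlapping ranges of 0.401 to 16.5 in SS and 0.617 to 2.01 in AA mice (2.004 ± 0.43, adjusted p = 0.00842). With the striatum level as a term neither was called (0.86 and 0.26, adjusted p = 0.273 and 0.785).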
